A study of Mus musculus with 27 samples.

Results

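Heterotrimeric G proteins carry signals from receptors in the cell membrane to enzymes and ion channels inside it. An alpha subunit binds GTP when a receptor is occupied and separates from a paired beta and gamma subunit, and the alpha subunit and the pair then each act on effectors. Alpha subunits of the Gs class switch on adenylyl cyclases, which make cyclic AMP, those of the Gi/o class hold many of these enzymes back, and those of the Gq class act on phospholipase C. RGS proteins speed up GTP hydrolysis by alpha subunits and so end the signal. In the brain this system reads dopamine, opioid, GABA-B, muscarinic and many peptide receptors.

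The genes described here encode alpha subunits, the beta subunits Gnb2 to Gnb5, gamma subunits, RGS proteins and adenylyl cyclases. They were found by whole gene symbol in the array's annotation, with Gnb1, Rgs4, Rgs5, Rgs7 and Rgs9 left out. This gave 41 of the 8252 genes named on the array, at 62 probe sets, where a probe set is the group of array probes that gives 1 intensity for a transcript. A set with the symbols of Gng5 and a Gng5 pseudogene and the set of the Gnas antisense transcript Gnasas1 were not counted among them. The rule names genes by symbol and family, and it was set with earlier results of these data known, including those of Gnb1, whose sets differ strongly between the strains and are described beside the other beta subunits.

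Whole brain RNA came from untreated mice of 2 inbred strains at 10 weeks of age, 5 males that the labels call C57BL/2 (C57 below) and 4 mice of DBA/2J (DBA below) whose sex the labels do not give. Each animal had 1 array of the platform used here, and the sample titles give strain and number. Another 18 arrays, titled with a number and a letter, belong to a second platform and were not used here. The question was how RNA levels in brain differ between the strains.

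Of the 62 probe sets, 54 from 38 genes were bright enough to test, which meant a mean over all 9 arrays at or above an intensity of 35.4, the limit that leaves out the dimmest 25% of sets. The other 8 sets lay below it. For Gna14, Gnat1 and Gngt2 these were the only sets, and for Gnao1, Gng11, Rgs10, Rgs11 and Rgs19 other sets were tested. A whole brain is a mixture, and in it fewer cells of a type and less RNA per cell cannot be told apart.

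No tested member differed between the strains at the threshold, an adjusted p under 0.05 from limma, whereas 2.50% of all 9316 tested probe sets did. The count was 0 of 54 sets, and the smallest adjusted p was 0.0837, at a set of Rgs16. Gnb1, whose sets all passed (limma adjusted p of 5.32e-05 or less), was left out by a rule set with its results known. The count therefore does not describe the whole gene family. At an unadjusted limma p under 0.05 there were 7 sets of 5 genes, or 13% of the members, against 12.2% of all tested sets. Of these, 6 had the lower intensity in DBA (11.1% of the members, 6.29% of all sets) and 1 had the higher (1.85% of the members, 5.88% of all sets). The animals of the strains did not overlap at 1 member set (1.85%), which was again the Rgs16 set, against 6.45% of all sets. These shares, and those of the intervals below, also lack the genes left out. At every Gnb1 set (higher in DBA) and at Rgs7 (lower, 984 to 1194 in C57 and 636 to 913 in DBA) the animals did not overlap. Rgs4 and both Rgs5 sets overlapped, with Rgs5 103294_at higher in DBA (unadjusted limma p = 0.0209). The shares and the balance of lower and higher sets therefore do not describe the whole gene family.

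The intervals limit how large a strain difference in intensity each member set can have. Sets of the same gene could disagree, as those of Gnai1 did (0.43 and -0.14). How closely intensity follows RNA at each set was not tested, so the RNA difference of a gene is not bounded in this way. The 95% interval of the log2 difference, DBA minus C57, lay wholly between -1 and 1, that is within 2-fold either way, at 50 of 54 member sets (92.6%), against 85.3% of all tested sets. It lay within 1.5-fold at 38 of 54 (70.4%, against 56.7% of all sets). These intervals are per set and are not widened for their number. The 4 sets whose intervals reached beyond 2-fold were those of Gnat2, Gnb3, Gng4 and 1 of the pair of Rgs16. Differences ran from -0.60 to 0.43 on the log2 scale, 24 of them above 0 and 30 below. Their median was -0.05, beside 0.01 over all tested sets, and their median size without regard to sign was 0.15, the same as the 0.15 of all sets.

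**Figure D1:**
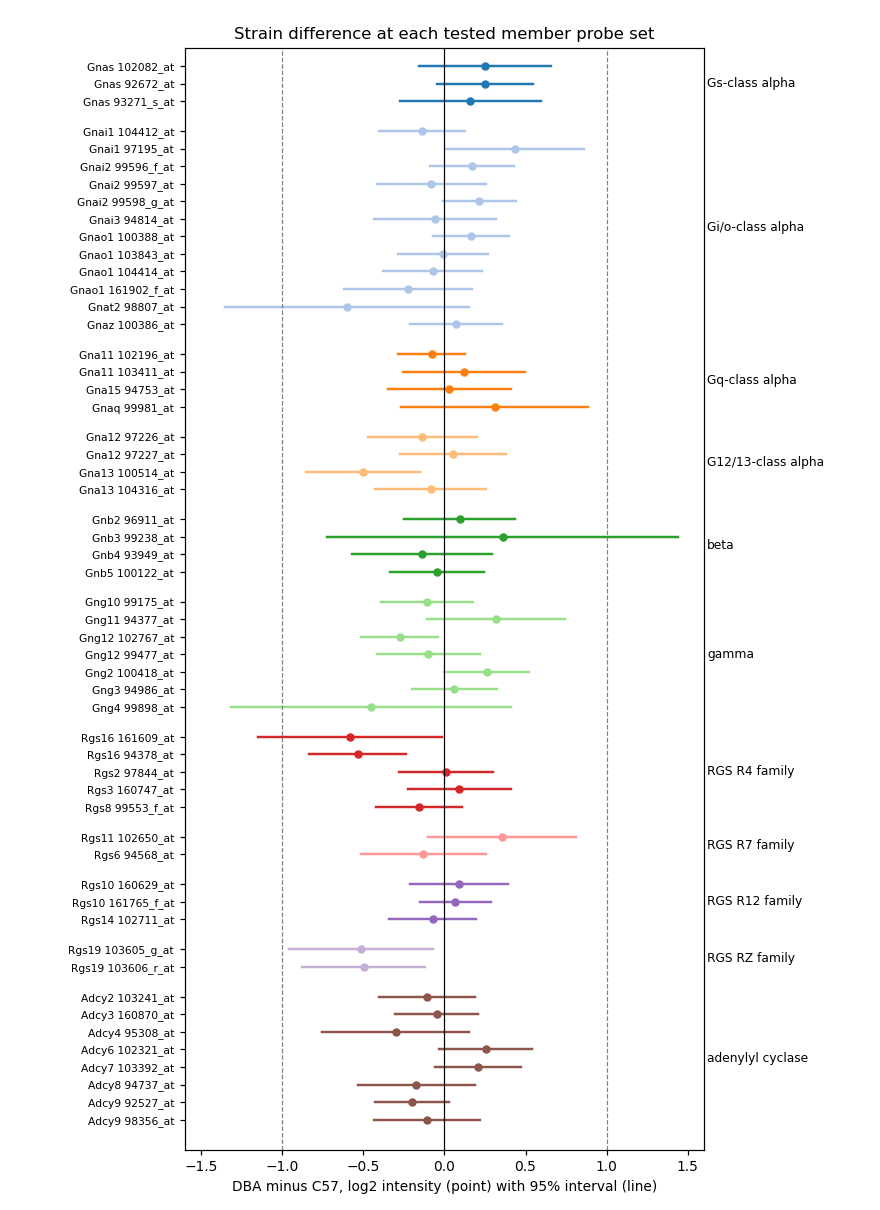
Strain difference at each of the 54 tested member probe sets, as DBA minus C57 in log2 intensity (horizontal axis, points) with its 95% interval from limma (lines), for 5 C57 and 4 DBA animals; colours mark the classes named at the right, and dashed lines mark a 2-fold difference either way. Most intervals include 0, 50 lie inside the dashed lines, and 7 leave out 0: both sets of Rgs16, both tested sets of Rgs19, Gna13 100514_at and Gng12 102767_at to the left of it, and Gnai1 97195_at to the right.

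**Figure D2:**
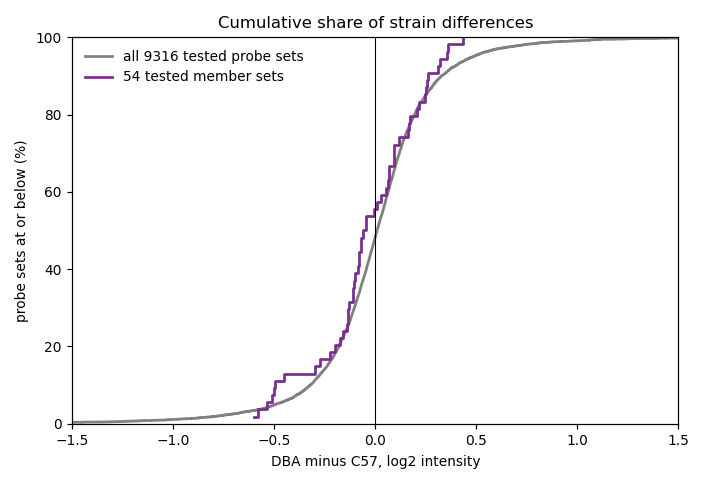
Cumulative share of probe sets (vertical axis, percent) by strain difference (horizontal axis, DBA minus C57 in log2 intensity), for the 54 tested member sets and for all 9316 tested sets; the axis ends at -1.5 and 1.5, beyond which some of the other sets lie. The curves have medians of -0.05 and 0.01, and the member curve ends at 0.43 on the right and begins at -0.60 on the left.

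Gnas, which encodes the widely used stimulatory alpha subunit and comes from an imprinted locus with several transcripts, was the 1 gene of the Gs class measured, by 3 sets. At 93271_s_at the C57 animals had intensities of 15688, 20064, 19204, 25007 and 19800, and the DBA animals 18571, 24617, 30459 and 16987. The DBA range thus enclosed nearly the whole C57 range, and the log2 difference was 0.16 ± 0.19 (standard error, here and below; adjusted p = 0.828). The other sets differed by 0.25 ± 0.13 at 92672_at, the smallest p of the class (adjusted p = 0.520), and by 0.25 ± 0.18 at 102082_at. Both were far dimmer, with means over all animals of 60.7 and 107.6 beside 20733 at 93271_s_at. All 3 differences were above 0, and none of the intervals left out 0. The antisense set of this locus, 160097_at, was below the brightness limit, with 9.7 to 23.5 in C57 and 20.8 to 36.7 in DBA. Array probes do not tell all transcripts of the locus apart.

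The Gi/o class was the most fully covered, with 12 tested sets of 6 genes, 5 of them above 0 and 7 below. Gnao1, the main Go subunit of neurons, had 4 tested sets, with log2 differences of 0.17 ± 0.10 (100388_at), -0.01 ± 0.12 (103843_at), -0.07 ± 0.14 (104414_at) and -0.22 ± 0.18 (161902_f_at). At 103843_at the C57 animals lay between 6276 and 8134 and the DBA animals between 6036 and 7795, so the strains overlapped over almost their whole range. A further Gnao1 set, 103844_at, was dim, with a geometric mean of 14.9 in C57 and 13.6 in DBA. Gnai2, an inhibitory subunit found in most cell types, differed by 0.22 ± 0.10 at 99598_g_at, 0.17 ± 0.12 at 99596_f_at and -0.08 ± 0.15 at 99597_at. The suffix f_at marks sets that match families of similar sequences, so the values of such sets may include other genes. Gnaz, the Gz subunit of neurons and platelets, differed by 0.07 ± 0.13, and Gnai3 by -0.06 ± 0.17. The Gnai3 value rested on DBA animal 3, whose intensity of 850 was well under the 1323, 1524 and 1368 of its strain mates. Without it the difference was 0.12.

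Gnai1, an inhibitory subunit abundant in brain, had the smallest p of its class and also the sets that disagreed most. At 97195_at the C57 animals had intensities of 690, 907, 590, 911 and 918 and the DBA animals 1223, 1329, 978 and 817. DBA animals 1, 2 and 3 lay above all C57 animals and DBA animal 4 lay within their range. The difference was 0.43 ± 0.19 (1.35-fold, p = 0.0469 by limma, adjusted p = 0.399). At 104412_at the other value was -0.14 ± 0.12 (adjusted p = 0.739), with 3073 to 3493 in C57 and 2381 to 3324 in DBA. The intervals of the pair overlapped only in part, from 0.01 to 0.86 at the one and from -0.40 to 0.13 at the other, and the sets give no common direction for the gene.

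Genes of the Gi/o class with a role in photoreceptors were near the lower end of the array's range in brain. Gnat1, the rod transducin alpha subunit, was below the brightness limit, with 12.7 to 44.6 in C57 and 14.7 to 34.3 in DBA. Gnat2, the cone form, was just above it, with 46.0, 32.8, 72.6, 37.4 and 35.8 in C57 and 36.5, 34.2, 13.7 and 37.6 in DBA. DBA animal 3 stood apart from the other DBA animals there, and the difference of -0.60 ± 0.34, the largest by size of the tested members, was not past the threshold (adjusted p = 0.544). Its C57 mean of 43.0 lay above the brightness limit and its DBA mean of 28.3 below it, so the set entered the test through the C57 animals. Without DBA animal 3 the difference was -0.25. Of 5 sets for retina and pineal marker genes (Sag, Pde6b, Rcvrn and Crx), 1, that of Crx, was bright enough to test. Their summed intensity per animal was 78.0 to 220 in C57 and 119 to 196 in DBA.

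The Gq class had 4 tested sets of 3 genes, 3 above 0 and 1 below. Gnaq, the main activator of phospholipase C in neurons, had the smallest p of the class, with a difference of 0.31 ± 0.26 (adjusted p = 0.726). Its animals spread widely within each strain, from 86.2 to 188.5 in C57 and up to 202.1 in DBA, and the interval reached from -0.26 to 0.89. Gna11, its close relative, was among the most tightly measured members. At 102196_at the C57 values were 669, 663, 777, 692 and 679 and the DBA values 654, 679, 687 and 613. Apart from C57 animal 3, the animals lay between 613 and 692, and the difference was -0.08 ± 0.09 (interval -0.29 to 0.13). The other Gna11 set, 103411_at, differed by 0.12 ± 0.17. Gna15, the Gq-class subunit known from blood cells, was near the brightness limit and differed by 0.03 ± 0.17.

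In the G12/13 class of alpha subunits, Gna13 was the gene with the smallest p. At 100514_at the C57 animals had 509, 444, 412, 352 and 440 and the DBA animals 324, 252, 266 and 386. DBA animal 4 lay inside the C57 range and the other DBA animals lay below it. The log2 difference was -0.50 ± 0.16 (1.42-fold, p = 0.00955 by limma, adjusted p = 0.176). The other Gna13 set, 104316_at, gave -0.08 ± 0.15, with 187 to 259 in C57 and 164 to 248 in DBA, so the sets of this gene did not show the same size of difference. Gna12 differed by -0.14 ± 0.15 at 97226_at and by 0.05 ± 0.15 at 97227_at.

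The beta subunits form a tight pair with a gamma subunit and bind effectors such as potassium channels. Gnb2, Gnb4 and Gnb5 had log2 differences of 0.09 ± 0.15, -0.14 ± 0.19 and -0.05 ± 0.13. Gnb2 had 4027, 4485, 4202, 5060 and 5871 in C57 and 4873, 6193, 5014 and 4138 in DBA, and the strains overlapped. Gnb5, which pairs with RGS proteins of the R7 family rather than with most gamma subunits, had 682 to 996 in C57 and 742 to 896 in DBA. Gnb3, known from cone photoreceptors and taste cells, had the widest spread of the tested members. Its C57 animals ran from 15.9 in animal 4 to 96.8 in animal 3, its DBA animals from 41.6 to 85.0, and the difference of 0.36 ± 0.48, the smallest p of the beta subunits (adjusted p = 0.849), had an interval from -0.72 to 1.44. The value rested on C57 animal 4: once that animal was dropped the difference was -0.0024, and it reached 0.65 when C57 animal 3 was dropped instead.

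These values stood beside a large strain difference at Gnb1, which is no member here. Its 3 sets differed by 2.21, 2.69 and 4.08, and their intervals began at 1.97, 2.26 and 3.73. The intervals of Gnb2, Gnb4 and Gnb5 ended at 0.44, 0.29 and 0.24. No test was made of Gnb1 against the other beta subunits, and the intervals of these genes did not meet.

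**Figure D3:**
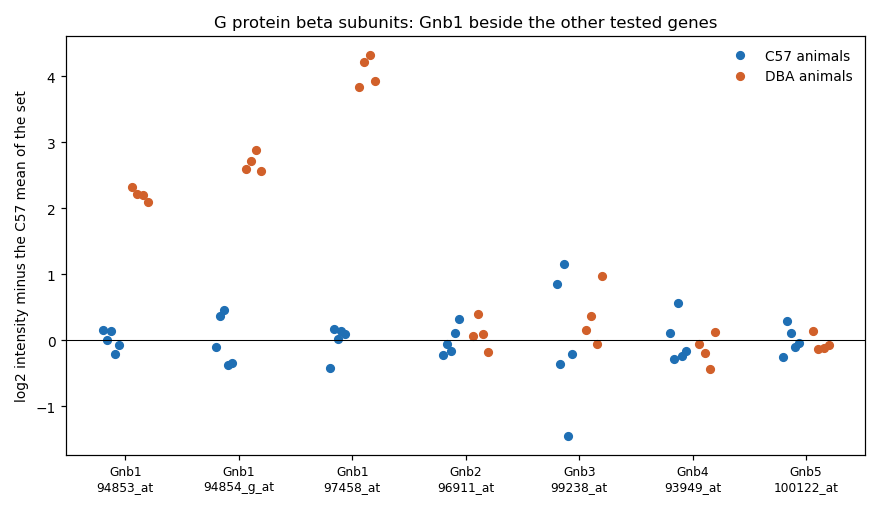
Beta subunit probe sets in each animal, as log2 intensity minus the C57 mean of the same set (vertical axis), for 3 sets of Gnb1 and 1 set each of Gnb2 to Gnb5; blue points are 5 C57 and orange points 4 DBA animals. The DBA animals stand above all C57 animals at each Gnb1 set, and the strains overlap at the sets of the other genes, with C57 animals at Gnb3 from 15.9 to 96.8 in intensity.

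Gamma subunits anchor the beta-gamma pair in the membrane. Of 7 tested sets of 6 genes, 3 were above 0 and 4 below. Gng12, a widely expressed form, had the smallest p at 102767_at. Its C57 animals had 1585, 1578, 1732, 1476 and 1420 and its DBA animals 1298, 1180, 1215 and 1465. DBA animal 4 lay among the C57 animals and the other DBA animals lay below them. The difference was -0.28 ± 0.11 (1.21-fold, p = 0.0273 by limma, adjusted p = 0.311), and at 99477_at it was -0.10 ± 0.14. Gng2, a form abundant in brain, had 311, 390, 326, 275 and 347 in C57 and 393, 412, 401 and 365 in DBA, of which DBA animal 4 overlapped with C57 animal 2 (0.26 ± 0.12, adjusted p = 0.410). Gng3, a neuronal form, differed by 0.06 ± 0.12, with 7393 to 10388 in C57 and 8833 to 10047 in DBA. Gng10 differed by -0.11 ± 0.13 and Gng11 by 0.32 ± 0.19.

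The value of Gng4, another gamma subunit found in brain, rested on 1 animal. The C57 animals had 258, 220, 176, 200 and 208, and the DBA animals 222, 264, 167 and 57.3. With all animals the difference was -0.45 ± 0.39 (adjusted p = 0.734), and without DBA animal 4 it was 0.02. The gamma subunit of cones, Gngt2, was below the brightness limit, with intensities of 1.9 to 16.8 over all animals.

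Rgs16 and Rgs19 were the RGS genes with the lowest p among the members, and at both the tested sets pointed the same way. Rgs16, a small RGS protein of the R4 family that acts on Gi/o and Gq subunits, had C57 intensities of 451, 486, 527, 505 and 494 and DBA intensities of 296, 302, 446 and 334 at 94378_at. All C57 animals lay above all DBA animals, with DBA animal 3 closest to them. The log2 difference was -0.53 ± 0.13 (1.45-fold, p = 0.00270 by limma, adjusted p = 0.0837, interval -0.83 to -0.23). The set missed the threshold with all animals and passed it without DBA animal 3, where the difference was -0.67 (adjusted p = 0.0109). It also passed where the dimmest 50% of sets were left out (adjusted p = 0.0359) and with an intensity trend and a robust variance prior (adjusted p = 0.0494). Over all alternatives its adjusted p ran from 0.0109 to 0.287.

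The second Rgs16 set, 161609_at, differed by -0.58 ± 0.25 (adjusted p = 0.394), with 182, 133, 196, 113 and 131 in C57 and 117, 108, 58.3 and 129 in DBA. Here the strains overlapped, and DBA animal 3 was the lowest of its strain, whereas it was the highest at 94378_at. The difference was between -0.71 and -0.33 with any 1 animal left out.

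Rgs19, of the RZ family and also known as GAIP after its partner Gi alpha 3, had 3 sets. At 103606_r_at the C57 animals had 282, 256, 421, 330 and 276 and the DBA animals 243, 195, 257 and 187. DBA animal 3 was level with C57 animal 2 and the other DBA animals were lower. The difference was -0.50 ± 0.17 (1.41-fold, p = 0.0154 by limma, adjusted p = 0.231). At 103605_g_at the C57 animals spread from 132 to 251 and the DBA animals from 116 to 163, with a difference of -0.51 ± 0.20 (1.43-fold, p = 0.0279 by limma, adjusted p = 0.314). The dim set 103604_at had 10.5 to 31.0 in C57 and 5.2 to 11.1 in DBA. These sets carry consecutive numbers and were not taken as independent measurements of the gene.

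**Figure D4:**
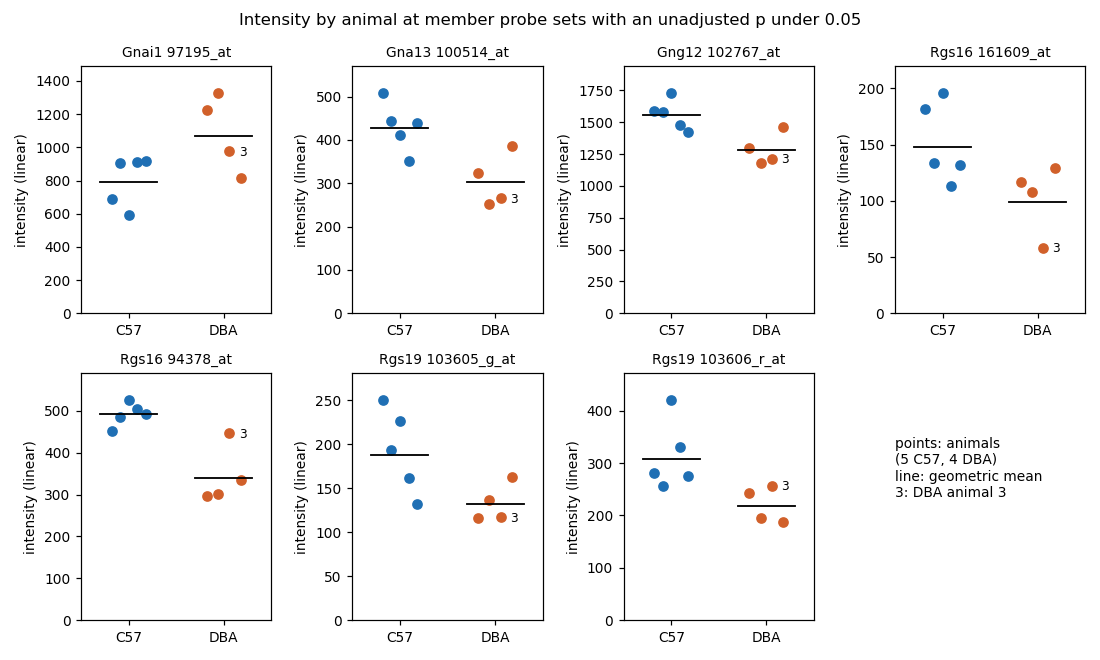
Intensity on a linear scale (vertical axes, from 0) in each of 5 C57 (blue) and 4 DBA (orange) animals at the 7 member probe sets with an unadjusted limma p under 0.05; black lines are geometric means and the digit 3 marks DBA animal 3. The strains are separate at Rgs16 94378_at alone, where DBA animal 3 with 446 lies just below the C57 animal with 451, and overlap at the other 6 sets, with the higher DBA mean at Gnai1 only.

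The other RGS genes had differences nearer to 0. In the R4 family Rgs2, which acts on Gq and is induced by neuronal activity, differed by 0.01 ± 0.13, with 623 to 837 in C57 and 609 to 834 in DBA, and with 1 animal left out the difference ran from -0.08 to 0.07. Rgs3 differed by 0.09 ± 0.14 and Rgs8, known from cerebellar Purkinje cells, by -0.16 ± 0.12. In the R7 family, whose members bind Gnb5, Rgs11 had the smallest p with 0.35 ± 0.20 (adjusted p = 0.558). Its DBA animals 1, 2 and 3 lay between 509 and 542 and DBA animal 4 at 301, and without animal 4 the difference was 0.55. Rgs6 differed by -0.13 ± 0.17. In the R12 family Rgs10, an RGS protein prominent in microglia, differed by 0.07 ± 0.10 at 161765_f_at, the smallest p of this family (adjusted p = 0.861), and by 0.09 ± 0.13 at 160629_at. Its dim set 103384_at had 70.3, 32.6, 10.6, 43.5 and 14.4 in C57 and 10.7, 4.4, 14.5 and 10.2 in DBA. C57 animals 1, 2 and 4 were above all DBA animals at this set, an order that the tested sets did not show. Rgs14, a scaffold of hippocampal neurons, differed by -0.07 ± 0.12.

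Of the RGS genes left out of the group, Rgs7 differed by -0.50 ± 0.12 (adjusted p = 0.0744), and its animals did not overlap between strains. This adjusted p was smaller than that of any member. Rgs4 differed by 0.02 ± 0.18, and Rgs5 by 0.37 ± 0.13 at 103294_at and 0.01 ± 0.21 at 96180_at. The set of Rgs9 was below the brightness limit.

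Adenylyl cyclases, the enzymes that make cyclic AMP from ATP, had 8 tested sets of 7 genes, 2 above 0 and 6 below, and all 8 intervals lay within 2-fold. Adcy6, a form inhibited by calcium, had the smallest p, with 421, 345, 453, 338 and 322 in C57 and 401, 456, 455 and 469 in DBA. The strains overlapped through C57 animals 1 and 3, and the difference was 0.26 ± 0.13 (adjusted p = 0.481, interval -0.03 to 0.54). Adcy9, a form that forskolin hardly stimulates, had 795, 739, 766, 764 and 742 in C57 and 631, 576, 711 and 746 in DBA at 92527_at. DBA animal 4 lay inside the narrow C57 range and the other DBA animals below it, and the difference was -0.20 ± 0.10 (adjusted p = 0.502). The second Adcy9 set, 98356_at, gave -0.11 ± 0.15.

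Adcy8, a calcium-stimulated form, differed by -0.17 ± 0.16, and Adcy3, the main form of olfactory neurons, by -0.05 ± 0.11. The cyclases stimulated by beta-gamma subunits differed by -0.11 ± 0.13 (Adcy2), -0.30 ± 0.20 (Adcy4) and 0.21 ± 0.12 (Adcy7). Adcy7 had 148, 185, 213, 188 and 161 in C57, while its DBA animals lay between 203 and 208, inside the C57 range. Adcy2, with 1673 to 2203 in C57 and 1569 to 2195 in DBA, overlapped over nearly the whole range.

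Of 12 genes with several tested sets, 7 had all sets on the same side of 0, 5 lower in DBA (Adcy9, Gna13, Gng12, Rgs16 and Rgs19) and 2 higher (Gnas and Rgs10). The other 5 (Gna11, Gna12, Gnai1, Gnai2 and Gnao1) had sets on both sides. The share of such agreement over all genes with several sets is not given here, so the count is not read as a trait of the members. In all 12 genes the intervals of the sets had values in common. The gap between the sets of a gene was smallest for Rgs19, 0.02 on the log2 scale, and largest for Gnai1, 0.57.

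Several of these genes lie beside each other in the genome, in the gene order of RefSeq on assembly GRCm38.p6. Rgs8 and Rgs16 are adjacent protein-coding genes, with differences of -0.16 at Rgs8 and -0.53 and -0.58 at Rgs16. Gnat2 and Gnai3 are adjacent, with -0.60 and -0.06, as are Gna15 and Gna11, with 0.03 beside -0.08 and 0.12. Gnaq is adjacent to Gna14, which was too dim to test, and 1 gene lies between Gnai2 and Gnat1. These were the 5 pairs of members with at most 3 protein-coding genes between them, and no test of a pair was made.

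Within a strain the spread of the members was close to that of other sets. The residual standard deviation of log2 intensity had a median of 0.21 over the tested members and 0.24 over all tested sets. It was lowest for Gna11 102196_at (0.09) and Rgs10 161765_f_at (0.10) and highest for Gnb3 (0.84), Gng4 (0.66) and Gnat2 (0.58). The farthest single values were those of C57 animal 4 at Gnb3, 1.45 below the mean of its strain on the log2 scale, DBA animal 4 at Gng4, 1.42 below, and C57 animal 3 at Gnb3, 1.16 above. The median deviation over the tested members was between -0.05 and 0.05 in every animal, and C57 animal 3 had the highest. That animal was the highest of its strain at 18 sets and the lowest at 7, whereas C57 animal 2 was the highest at 7 and the lowest at 16, and C57 animal 4 at 7 and 15. Among the DBA animals, animal 1 was the highest at 7 sets and the lowest at 14, animal 3 at 17 and 12, and animal 4 at 17 and 15.

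**Figure D5:**
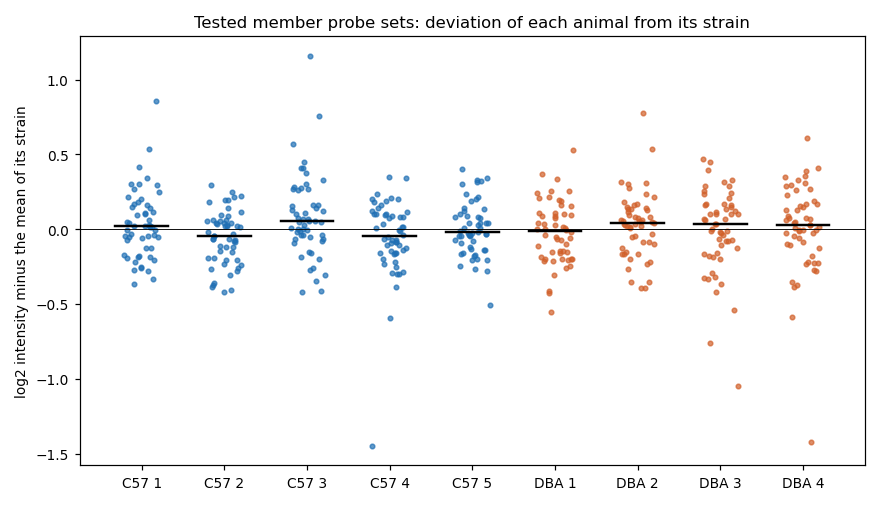
Deviation of each animal from the mean of its own strain, in log2 intensity (vertical axis), at the 54 tested member probe sets (points, spread sideways for clarity); black lines are medians, blue marks 5 C57 and orange 4 DBA animals. All medians lie between -0.05 and 0.05, and the lowest points are C57 4 at Gnb3, DBA 4 at Gng4 and DBA 3 at Gnat2.

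The partners of the G protein cycle were taken from a list of 50 genes, of which 30 were on the array and 26 could be tested, at 34 sets. Of these, 2 sets passed the threshold (5.88%, beside 2.50% of all sets), 1 higher and 1 lower in DBA, and 6 had an unadjusted limma p under 0.05 (17.6%, beside 12.2% of all sets). The median log2 difference was 0.06, beside 0.01 over all tested sets. Pkia, which encodes an inhibitor of the protein kinase that cyclic AMP switches on, had 1276, 1165, 1308, 929 and 978 in C57 and 466, 357, 314 and 540 in DBA at 98004_at. All DBA animals were below all C57 animals, and the set fell in DBA by 1.45 ± 0.18 on the log2 scale (adjusted p = 0.00184). The other Pkia set, 98005_at, did not show this, with -0.32 ± 0.28 (adjusted p = 0.738) and overlapping animals. Kcnj9, a potassium channel subunit opened by beta-gamma subunits, rose at 98332_at, from 561 to 738 in C57 to 1462 to 1849 in DBA (1.44 ± 0.12, adjusted p = 0.000147). Its other tested set, 161799_r_at, did not pass, with 0.65 ± 0.27 (adjusted p = 0.358) and overlapping animals.

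The other partner groups had no set past the threshold. These were 4 sets of receptor kinases and arrestins, led by Grk5 (0.59 ± 0.14, adjusted p = 0.0661), 3 of phospholipase C beta, all of Plcb1 and led by 92467_g_at (-0.05 ± 0.15), 7 of phosphodiesterases, led by Pde7a (-0.26 ± 0.12, adjusted p = 0.406), and 7 of exchange and accessory proteins, led by Rap1gap (0.28 ± 0.13, adjusted p = 0.441). The 6 other tested genes of protein kinase A and its inhibitors and the other tested channel genes, Kcnj3 and Kcnj6, did not pass either. The closest of them was the kinase inhibitor gene Pkib (0.36 ± 0.09, adjusted p = 0.0954). Animals did not overlap between strains at the sets of Pkib and Grk5, nor at the Pkia and Kcnj9 sets past the threshold. The share without overlap was 6.45% over all tested sets.

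The arrays were alike in overall measures. Median intensity lay between 160 and 198, each array had the same trimmed mean, and any pair of arrays correlated at 0.939 to 0.978 across tested sets. Neuron markers were present, with summed intensities of 31410 to 35247 in C57 and 32317 to 37741 in DBA over 6 sets, 0 of which passed the threshold and 1 of which had an unadjusted limma p under 0.05. Sums were lower in DBA without overlap for microglia (8 sets of 6 genes, 2 lower at the threshold; 4602 to 5236 in C57, 3760 to 4123 in DBA) and for astrocytes (7 sets of 4 genes, 0 past the threshold; 6186 to 6685 and 5046 to 5543). At an unadjusted limma p under 0.05, 1 astrocyte set was lower in DBA, Glul 94852_at (-0.54), and 1 was higher, Slc1a2 96202_at (0.34). Both microglia sets past the threshold were of complement genes, C1qb 96020_at (-0.85) and C1qc (-0.65), while Csf1r differed by -0.06 and 0.40 at its sets and Cx3cr1 by 0.04. All of these microglia and astrocyte sets were bright enough to test, so none had an intensity near 0. Striatum markers overlapped (9374 to 12241 and 8698 to 10729). The cerebellum sum was higher in DBA without overlap, by a narrow margin (10982 to 13430 and 13473 to 14813). Of its 6 sets, 0 passed the threshold and 1 had an unadjusted limma p under 0.05, that of Cbln1 (0.40). The brightest of them, Pvalb 96719_i_at, overlapped (5014 to 7839 and 6283 to 7848). Oligodendrocyte sums overlapped (12150 to 16081 and 10929 to 13354; 0 of 5 tested sets past the threshold), with 2 sets lower at an unadjusted limma p under 0.05, those of Mag (102405_at, -0.57) and Mog (-0.62). Choroid plexus sums overlapped too (1135 to 3535 and 3458 to 4652; 0 of 3 tested sets past the threshold), with Ttr higher at an unadjusted limma p under 0.05 (0.85). So did the sums of blood (5499 to 9677 and 4381 to 7693), vessel (1846 to 2298 and 1682 to 2327) and pituitary markers (348 to 778 and 454 to 602). In the blood list S100a8 was lower in DBA without overlap (46.5 to 114 and 35.8 to 45.7, -1.01, adjusted p = 0.0506). Hba-a1 (-0.15) and Alas2 (-0.14) overlapped. The Gapdh control sets for the 3' and 5' ends of the transcript, which track RNA and target quality, had a log2 ratio, 3' over 5', of -0.29 to -0.19 in C57 and -0.44 to -0.32 in DBA, lowest in DBA animal 3. The ratio of beta-actin overlapped (0.50 to 0.91 and 0.52 to 0.66). So did those of 18S RNA (1.64 to 4.35 and 1.77 to 2.79), pyruvate carboxylase (0.57 to 1.22 and 0.57 to 0.77) and the transferrin receptor (1.70 to 2.00 and 1.61 to 1.86). Gapdh was thus the only control whose ratio separated the strains. The microglia, astrocyte and cerebellum sums and the Gapdh ratio thus did not overlap between strains, and stood beside the lower DBA values of Rgs16, Rgs19, Gna13 and Gng12, and their part in those values was not tested.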

How the data were processed

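The members and gene lists were chosen with earlier results of these data known. The deposited values are intensities on a linear scale. The labels' descriptions state 5 ug of total RNA as the start of cRNA synthesis. How probes were combined into sets and how arrays were normalized is not given in the sources used here. With 2% trimmed at each end, the deposited intensities averaged 500.3 on every array, so the arrays had been scaled alike. No detection calls were used. Precision is limited by the 9 arrays. The limma p-values set each strain difference against the spread between animals within a strain, with variances moderated across all tested sets.

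Symbols came from the platform annotation. By gene identifier, all 41 member genes were found among the protein-coding genes of RefSeq (GRCm38.p6). Of 12488 probe sets, 66 array controls were left out of the test. A floor of 1.7, taken at the 1st percentile of the positive values, replaced lower intensities (0 of the tested member values). Log2 was taken and the dimmest 25% of sets were left out, leaving 9316. Array medians spanned 0.31, under the limit of 0.5 for quantile normalization. The strains were compared as DBA minus C57 with limma 3.58.1 (lmFit, then eBayes; R 4.3.3), 2-sided, with Benjamini-Hochberg adjustment over all tested sets. The script was tested on simulated data. Folds are ratios of geometric means, and mean intensities are geometric.

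Values were given in full for sets past the threshold, the smallest p of each class, and sets with an unadjusted p under 0.05, with the other sets of those genes. Further members and Grk5 and other leading partners were given after their values were seen. Alternatives were another scaling, floor, filter, variance model and threshold, the brightest set of each gene, the animal number as a block, and leaving out each animal. Animals with the same number did not deviate together (correlations of -0.17 to -0.01 over 4 numbers), so the numbers were not taken as pairs. Figures were drawn with matplotlib 3.10.9.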

Additional observations from a re-analysis of the deposited data

Results flagged for a closer look

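In 7 of the 108 groups of 4 or 5 animals at tested member sets (6.48%), 1 animal stood apart from its strain by Dixon's criterion, and chance alone flags about 1 in 20 such groups. DBA animal 3 was the lowest of its strain at Gnao1 104414_at (311.9 against 423.3 to 449.4), at Gnat2 98807_at (13.7 against 34.2 to 37.6) and at Rgs8 99553_f_at (1343.9 against 1775.4 to 1832.7). DBA animal 4 was the lowest at Rgs11 102650_at (301.2 against 508.7 to 542.3). C57 animal 3 was the highest at Gna11 102196_at (776.9 against 663.3 to 692.2) and the lowest at Gnaz 100386_at (577 against 746.3 to 800). C57 animal 4 was the lowest at Gnas 92672_at (45.6 against 57.8 to 62.2). The cause of these values was not tested.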

How the results depend on the processing

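The count of members past the threshold was 0 under every alternative but 3, where it was 1, the Rgs16 set 94378_at each time: with the dimmest 50% of sets left out, with a trend and robust variance prior, and without DBA animal 3. With 1 animal left out it thus ran from 0 to 1. Of the 54 tested member sets, 36 kept the sign of their difference in every one of the 17 refits that tested them. With the animal number as a block (replicate block), 0 members, 73 of all sets and 1 partner set (Kcnj9 98332_at, without Pkia) passed, in place of 0, 233 and 2. The block leaves few degrees of freedom, and 0 of 8 animals correlated best with the animal of its own number in the other strain. At an adjusted p under 0.01, 150 of all sets passed. Leaving out 1 animal gave 185 to 231 of all sets. The partner count was 3 with an offset of 50, with the dimmest 50% left out and without DBA animal 4, where Grk5 was added. The median member difference was between -0.08 and -0.01 throughout. The 8 dim sets were not tested in the main fit. They entered the alternative with no filter on dim sets, where none of them passed the threshold. The smallest adjusted p there was 0.303, at Rgs19 103604_at (-1.08 ± 0.36). The largest difference by size was at Rgs10 103384_at (-1.58 ± 0.59, adjusted p = 0.381), and only Rgs11 161309_r_at was above 0 (0.45 ± 0.81). At 38 of the 54 tested sets the interval excludes differences in intensity beyond 1.5-fold.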
